A study of Mus musculus with 2 samples.

Results

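The 41 genes described here encode the machinery that copies DNA and the enzymes that make its nucleotides. They were taken by symbol from a fixed list and are 41 of the 27998 genes in the count matrices, and all 41 were found there. The list's rule uses no measured value, but the list was chosen with earlier results of these data known. The genes fall into 9 roles: licensing of origins (Mcm2 to Mcm7, Cdc6, Cdt1), activation of the helicase (Mcm10, Cdc45, Gins1, Gins2), polymerases and primase (Pola1, Pola2, Prim1, Prim2, Pole, Pold1), sliding clamp and clamp loader (Pcna, Rfc2 to Rfc5), lagging strand and single-strand binding (Fen1, Lig1, Rpa1, Rpa2), nucleotides (Tyms, Tk1, Rrm1, Rrm2, Dut), chromatin and fork protection (Chaf1a, Chaf1b, Uhrf1, Hells, Tipin, Slbp), base excision (Ung) and G1/S cyclins (Ccne1, Ccne2).

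The data are droplet single-cell RNA profiles of sorted cells from mice of the Foxp3Cre-YFP genotype, whose Foxp3 locus, active in regulatory T (Treg) cells, also drives Cre and a yellow fluorescent protein. The tumour group is 1 library from B16 melanoma taken on day 14, and the lymph node group is 1 library from animals that were not challenged. Both groups share the genotype, the C57BL/6 strain and an age of 5 to 8 weeks, and the mice are described as wild type apart from that allele. Neither the sort gate nor how many mice a library pools is stated, and with 1 library per tissue no difference has a replicate check, so no p-value is given.

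Before a cell divides, its DNA is copied once. In G1 the Cdc6 and Cdt1 proteins load the Mcm2-7 helicase on origins, and at the start of S phase cyclin E kinase activity and the Cdc45 and GINS proteins turn the helicase on. Primase and the replicative polymerases then copy both strands behind a Pcna clamp, while ribonucleotide reductase, thymidylate synthase, thymidine kinase and dUTPase keep the supply of deoxynucleotides. Many of these genes are known targets of the E2F transcription factors. Treg cells are known to divide after antigen encounter, and to be largely resting in unchallenged lymph nodes.

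Cells numbered 1457 in tumour and 2202 in lymph node after filtering, at medians of 8766 and 4100 UMIs (unique molecular identifiers, each a count of 1 captured transcript). The kept cells carried T cell and Treg transcripts. With every cell thinned to 2500 UMIs, the share with Cd3e was 75.2% in tumour and 74.2% in lymph node, with Ikzf2 88.1% and 63.2%, and with Foxp3 5.42% and 5.21%. Of both CD8 genes, Cd8b1 had 325 UMIs in tumour and 188 in lymph node and was seen in 5.22% and 4.36% of cells, while Cd8a had 0 UMIs in both. At this depth 0 of 1457 tumour cells and 0 of 1881 lymph node cells had a Cd8a UMI. The Clopper-Pearson upper bounds are 0.253% and 0.196% of cells with a Cd8a UMI, and they set no limit on cells that express the gene. The cell filter removed barcodes rich in 3 of the B16 genes and in macrophage and B cell genes, so the low sums of those lists are in part set by the filter. The 5 B16 markers Pmel, Dct, Mlana, Tyrp1 and Tyr summed to 32.9 UMIs per 1000000 (CPM) in kept tumour cells and 0.0936 in lymph node cells, where 4 of the 5 were at 0. Macrophage, B cell, dendritic and fibroblast lists each summed to at most 3.24 CPM in tumour cells. The 3 NK markers had 0 UMIs in tumour and 4 in lymph node cells, and both endothelial markers had 0 in either. The libraries shared 1 cell barcode.

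RefSeq promoter windows of 300 bases (250 before the start of the gene and 50 after, GRCm38.p6) were held for 33 of the 41 genes; the others are Mcm4, Gins1, Gins2, Prim2, Pole, Rfc2, Tipin and Ccne2. An E2F motif, searched on both strands as TTTCCCGC, TTTCGCGC, TTTGCCGC or TTTGGCGC, was found in 12 of the 33 (36.4%), against 704 of 27025 genes with a window (2.605%). The 12 are Mcm3, Mcm5, Mcm6, Mcm7, Cdc6, Cdt1, Pola1, Pold1, Rfc3, Lig1, Uhrf1 and Hells, so 6 of them load or form the licensed helicase. The CCAAT box, searched as CCAAT on both strands, was found in 18 of the 33 (54.5%) and in 41.1% of all genes with a window. A match describes letters only and is not a binding site. 5 windows are printed 5′ to 3′ on the strand of the gene, with matches in capitals: Mcm6, which had the most E2F matches and was chosen after they were seen; Slbp, among the genes with the most UMIs; Tk1 and Chaf1a, with the highest tumour to lymph node ratios; and Ung, with the lowest ratio among genes that have a window.
Mcm6: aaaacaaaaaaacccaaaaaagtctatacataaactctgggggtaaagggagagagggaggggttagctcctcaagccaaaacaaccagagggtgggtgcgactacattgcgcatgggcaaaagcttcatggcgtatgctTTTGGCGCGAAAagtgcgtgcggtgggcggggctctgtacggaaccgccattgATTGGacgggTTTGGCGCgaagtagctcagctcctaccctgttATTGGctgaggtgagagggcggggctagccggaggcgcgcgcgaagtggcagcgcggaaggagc
Slbp: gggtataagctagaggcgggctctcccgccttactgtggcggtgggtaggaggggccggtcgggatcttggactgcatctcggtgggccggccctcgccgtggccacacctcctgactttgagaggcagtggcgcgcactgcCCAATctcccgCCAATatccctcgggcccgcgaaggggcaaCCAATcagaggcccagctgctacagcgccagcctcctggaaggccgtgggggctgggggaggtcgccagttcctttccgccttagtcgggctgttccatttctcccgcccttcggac
Chaf1a: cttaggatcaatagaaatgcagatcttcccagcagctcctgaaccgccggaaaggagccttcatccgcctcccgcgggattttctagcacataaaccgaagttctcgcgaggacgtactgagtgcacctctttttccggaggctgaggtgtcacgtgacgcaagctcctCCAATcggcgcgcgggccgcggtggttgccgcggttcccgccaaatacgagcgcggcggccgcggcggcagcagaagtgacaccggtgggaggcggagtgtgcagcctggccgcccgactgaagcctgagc
Tk1: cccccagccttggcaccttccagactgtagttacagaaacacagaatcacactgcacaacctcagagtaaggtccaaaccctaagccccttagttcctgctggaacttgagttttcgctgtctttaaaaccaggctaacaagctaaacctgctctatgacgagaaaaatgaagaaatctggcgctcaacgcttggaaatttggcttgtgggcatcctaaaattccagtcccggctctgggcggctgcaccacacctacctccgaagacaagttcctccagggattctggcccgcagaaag
Ung: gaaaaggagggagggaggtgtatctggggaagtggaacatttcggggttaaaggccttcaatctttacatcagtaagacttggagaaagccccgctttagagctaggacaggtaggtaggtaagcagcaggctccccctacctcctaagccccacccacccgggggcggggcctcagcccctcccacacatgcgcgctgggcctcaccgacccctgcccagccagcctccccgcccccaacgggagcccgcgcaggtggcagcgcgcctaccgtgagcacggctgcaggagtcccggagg
The windows are chr1:128359656-128359955 (minus strand), chr5:33652525-33652824 (minus), chr17:56040166-56040465 (plus), chr11:117825965-117826264 (minus) and chr5:114130185-114130484 (plus). In Mcm6, which encodes a subunit of the helicase, the E2F matches begin at -110, -106 and -47 relative to the start, the first 2 of them overlapping on opposite strands, and CCAAT boxes lie at -57 and -14. Slbp, which encodes the stem-loop binding protein of histone mRNAs, has 3 CCAAT boxes, at -108, -97 and -67, and Chaf1a, for the large subunit of chromatin assembly factor 1, has 1 at -81. Neither motif was found in the Tk1 or the Ung window, nor in that of Dut, the gene with the most UMIs in both tissues.

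Tumour cells carried more transcript of nearly all of these genes than lymph node cells did. Levels are given as CPM, a gene's UMIs per 1000000 UMIs of the kept cells, with 95% intervals that cover counting error only; they are not scaled per gene length, since each transcript is counted from its 3′ end. Summed over the 41 genes the level was 2650 CPM (2625 to 2675; 44171 UMIs) in tumour and 1127 CPM (1107 to 1148; 12042 UMIs) in lymph node, a 2.35-fold difference (2.30 to 2.40). The ratio depended on the cells used. Without the 5% of each library's cells with the most UMIs it was 3.71-fold (3.61 to 3.81), at 2445 CPM in tumour and 659.7 CPM in lymph node. Those deepest cells held 57 of the 90 lymph node cells with 3 or more UMIs of the mitosis genes used below. In tumour they held 73 of 736. With every cell thinned to 2500 UMIs the ratio was 2.42-fold (2.33 to 2.52). At least 2-fold higher in tumour were 30 of the 41 genes and at least 2-fold lower 0, beside 13.2% (higher) and 7.70% (lower) of the 9976 genes with at least 50 UMIs. For 24 of the 30 even the lower bound of the interval passed 2-fold, a share that was not computed for all genes. On the log2 scale the median ratio was 1.33 for the 41 genes and 0.14 for all 9976, and single genes ran between -0.05 (Gins1) and 2.28 (Tk1). Without those deepest cells 36 of the 41 genes were at least 2-fold higher and 0 lower, beside 15.5% and 7.83% of 9768 genes, and the median log2 ratio was 2.06. The ratios of 27 genes were then over 1.5 times higher, so the folds and counting intervals of single genes given next hold for all kept cells. In bulk sums such as these, fewer cells of a type and less RNA per cell cannot be told apart.

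**Figure D1:**
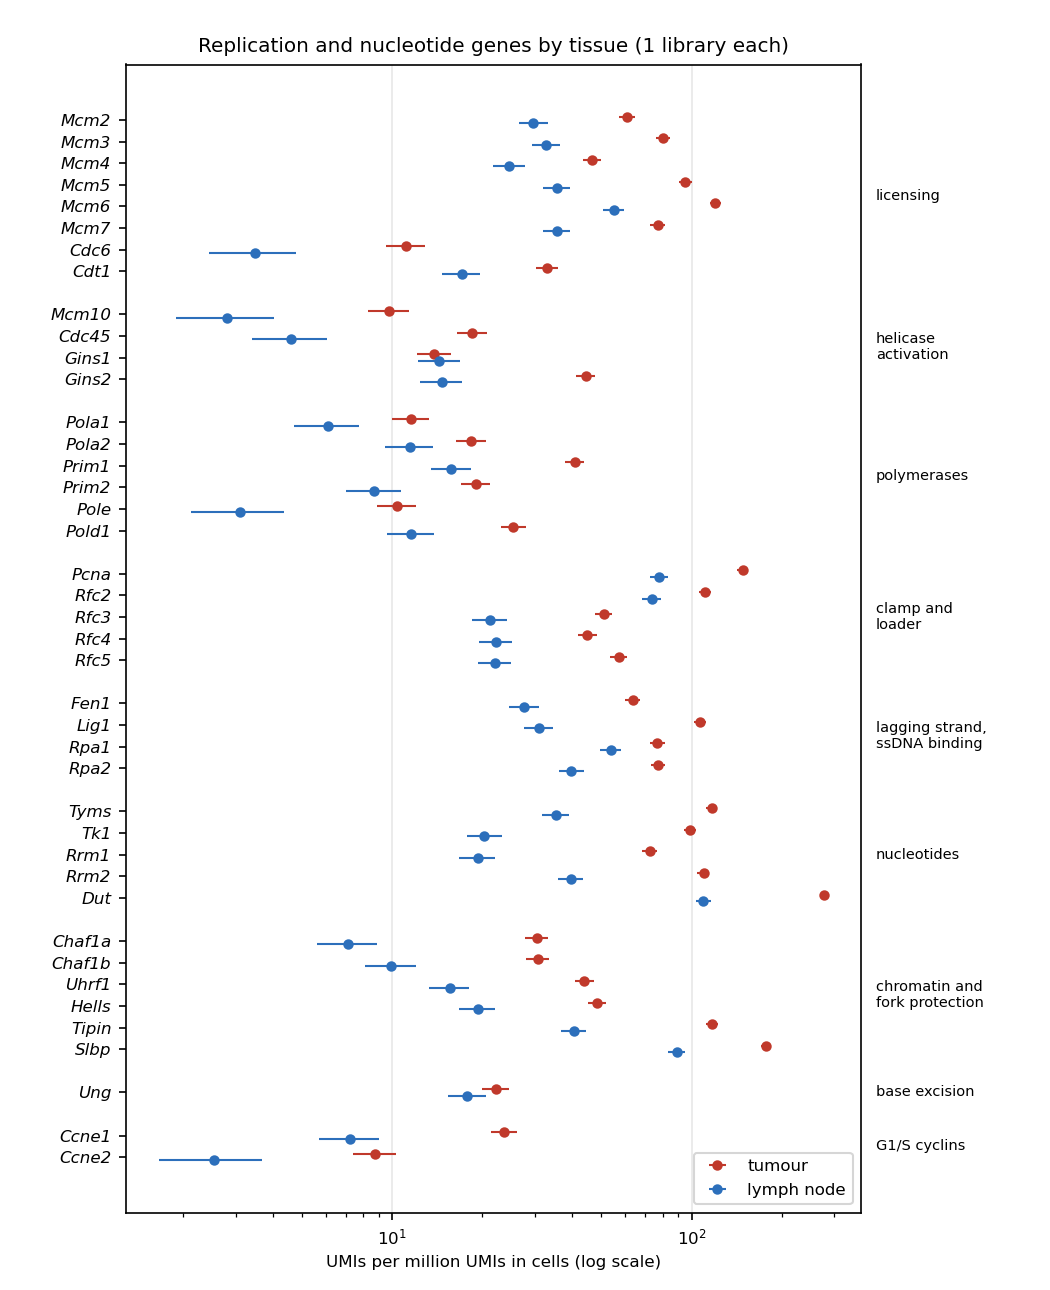
Level of each of the 41 genes in tumour (red) and lymph node (blue), in CPM of kept cells on a log axis, grouped by role; bars are 95% Poisson intervals for counting error. The tumour point lies to the right of the lymph node point for 40 genes, and for Gins1 the intervals overlap.

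The nucleotide genes had the widest difference of any role with more than 2 genes, at 675 CPM in tumour and 224 CPM in lymph node, 3.01-fold (2.88 to 3.15), and all 5 were at least 2-fold higher. Tk1 (ENSMUSG00000025574, chr11:117815526-117826092), the thymidine kinase of S phase cells, had 98.9 CPM (94.2 to 104) in tumour and 20.3 CPM (17.7 to 23.2) in lymph node, 4.87-fold (4.22 to 5.64). Rrm1 and Rrm2 encode the large and the small subunit of ribonucleotide reductase. Rrm1 had 72.5 CPM in tumour and 19.3 CPM in lymph node, 3.76-fold (3.24 to 4.38), and Rrm2 had 109.7 CPM and 39.5 CPM, 2.78-fold (2.50 to 3.09). Without the deepest 5% of cells Rrm2 was 19.3-fold (14.4 to 26.4) higher and Tk1 18.4-fold (13.6 to 25.5), on 46 and 44 lymph node UMIs. Tyms, thymidylate synthase, had 117 CPM in tumour and 35.2 CPM in lymph node, 3.31-fold (2.97 to 3.71). Dut, the dUTPase that keeps uracil out of DNA, had 277 CPM and 109.4 CPM, 2.53-fold (2.37 to 2.70).

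Among the licensing genes 6 of 8 reached 2-fold higher in tumour, and the 6 helicase subunits lay close together. Their ratios ran between 1.89 (1.64 to 2.19) for Mcm4, at 46.6 CPM in tumour and 24.6 CPM in lymph node, and 2.68 (2.40 to 3.01) for Mcm5, at 95.3 CPM and 35.5 CPM. Mcm2, Mcm3, Mcm6 and Mcm7 were between them, at 2.06, 2.46, 2.18 and 2.17-fold. Both loaders differed from each other in ratio: Cdc6 had 11.1 CPM (9.56 to 12.8) in tumour and 3.46 CPM (2.44 to 4.77) in lymph node, 3.20-fold (2.24 to 4.69), and Cdt1 had 32.9 CPM and 17.0 CPM, 1.93-fold (1.63 to 2.29), with overlapping intervals of the ratio.

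The helicase activators held the widest contrast within a role. Cdc45, a subunit of the active helicase, had 18.5 CPM (16.5 to 20.7) in tumour and 4.59 CPM (3.39 to 6.06) in lymph node, 4.03-fold (2.97 to 5.56). Mcm10, a fork scaffold, was 3.46-fold higher (9.72 CPM against 2.81 CPM). The GINS complex was split: Gins2 had 44.3 CPM in tumour and 14.6 CPM in lymph node, 3.04-fold (2.55 to 3.63), while Gins1 (ENSMUSG00000027454, chr2:150905400-150931280) had 13.8 CPM (12.1 to 15.7) in tumour and 14.3 CPM (12.1 to 16.8) in lymph node, a ratio of 0.963 (0.782 to 1.19). Gins1 was the only one of the 41 whose interval held 1. At 2500 UMIs per cell its share of cells was 2.13% in tumour and 2.98% in lymph node, while the other 40 genes were detected in a larger share of tumour cells. Neither the share of all genes whose interval held 1 nor the share detected in more tumour cells was computed.

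Of the polymerase genes 4 of 6 were at least 2-fold higher in tumour. Pole, the catalytic subunit of the leading-strand polymerase, had 10.4 CPM in tumour and 3.09 CPM in lymph node, 3.36-fold (2.30 to 5.03), and Pold1, the catalytic subunit of polymerase delta, had 25.4 CPM and 11.5 CPM, 2.20-fold (1.80 to 2.72). The primase subunits Prim1 and Prim2 were 2.59-fold and 2.18-fold higher. The polymerase alpha genes that partner them, Pola1 and Pola2, were under the 2-fold line at 1.89-fold (1.42 to 2.55) and 1.61-fold (1.30 to 1.999).

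The clamp and its loader had the lowest ratio of the roles with several genes, 1.90-fold (1.81 to 1.99). Pcna, the clamp, had 148 CPM in tumour and 77.8 CPM in lymph node, 1.90-fold (1.76 to 2.06). The loader's small subunits were not alike: Rfc3, Rfc4 and Rfc5 were 2.40, 2.02 and 2.60-fold higher in tumour, and Rfc2 had 111 CPM in tumour and 73.5 CPM in lymph node, 1.51-fold (1.39 to 1.65). Lig1, the ligase that joins Okazaki fragments, had 107 CPM in tumour and 30.9 CPM in lymph node, 3.46-fold (3.08 to 3.91), and the flap nuclease Fen1 was 2.31-fold higher (2.03 to 2.64). The single-strand binding subunits were closer to even, at 1.43-fold (1.30 to 1.58) for Rpa1 and 1.95-fold (1.75 to 2.18) for Rpa2.

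In the chromatin and fork group 5 of 6 were at least 2-fold higher. The chromatin assembly genes Chaf1a and Chaf1b, whose products place histones on new DNA, had 30.4 and 30.7 CPM in tumour and 7.12 and 9.92 CPM in lymph node, 4.27-fold (3.35 to 5.51) and 3.09-fold (2.50 to 3.84). Uhrf1, which brings the maintenance methyltransferase to new DNA, was 2.82-fold higher, the chromatin remodeller Hells 2.51-fold and the fork protector Tipin 2.90-fold. Slbp had 177 CPM in tumour and 89.2 CPM in lymph node, 1.99-fold (1.85 to 2.14). The cyclin E genes Ccne1 and Ccne2 drive entry to S phase, and the ratio was 3.28 (2.56 to 4.24) for Ccne1 and 3.46 (2.29 to 5.44) for Ccne2. Ung, the uracil glycosylase of base excision repair, had 22.2 CPM (19.99 to 24.6) in tumour and 17.8 CPM (15.3 to 20.5) in lymph node, 1.25-fold (1.04 to 1.49). At 13 of the 41 loci another annotated gene overlaps, for example Cops6 and Ap4m1 at Mcm7 and Afmid at Tk1, and whether strand was used in counting is not stated.

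Per cell the genes were sparse. At 2500 UMIs a tumour cell held a median of 3 UMIs of the 41 genes and a lymph node cell 1, and the highest cells held 33 and 32. At least 3 such UMIs were present in 50.2% of tumour cells (47.6 to 52.8, Clopper-Pearson) and 23.8% of lymph node cells (21.9 to 25.8). The share with at least 10 was 17.1% (15.2 to 19.1) in tumour and 2.39% (1.75 to 3.19) in lymph node. The gap in ratio between the tissues was thus wider for cells rich in these transcripts. The share of cells with a Dut UMI was 29.99% in tumour and 15.3% in lymph node, with Pcna 19.3% and 13.3%, with Lig1 15.9% and 3.30%, and with Tk1 12.5% and 1.75%. No cell type that should lack these genes was sampled. Barcodes with 10 to 100 UMIs, which hold free RNA, carried 3419.5 CPM of the 41 genes in tumour and 1606 CPM in lymph node, so the same order of the tissues stood in free RNA; its part in the shares was not tested.

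Cells were then classed by UMIs of 20 mitosis genes, among them Ccnb1, Cdc20, Plk1, Aurkb and Cenpe, none of which is among the 41. In tumour 248 cells had 0 such UMIs, 473 had 1 or 2 and 736 had 3 or more, and in lymph node the classes held 1644, 468 and 90 cells. The summed level of the 41 genes was 942, 1157 and 3332 CPM in these classes in tumour and 659, 731 and 4307 CPM in lymph node. Cells with 3 or more mitotic UMIs thus held 3.54-fold (3.36 to 3.73) as much as cells with 0 in tumour and 6.54-fold (6.29 to 6.80) as much in lymph node. The class with 3 or more held 87.5% of the tumour library's UMIs of the 41 genes beside 69.6% of all its UMIs, and 47.4% beside 12.4% in lymph node. Depth moved with class: median UMIs per cell were 13534.5 with 3 or more and 5909.5 with 0 in tumour, and 13237 and 3882.5 in lymph node.

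At least 2-fold higher in cells with 3 or more mitotic UMIs than in cells with 0 were 37 of 41 genes in tumour, where 8.98% of 8750 genes were, and 35 of the 36 that reached 50 UMIs in lymph node, where 9.00% of 7859 genes were. At least 2-fold lower were 0 in either tissue, beside 2.91% and 6.92% of all genes. The median log2 ratio of the 41 genes was 1.97 in tumour and that of the 36 was 2.75 in lymph node. Without the deepest 5% of cells the lymph node class held 33 cells, and 22 of 27 genes were at least 2-fold higher with a median of 1.68. With every cell thinned to 2500 UMIs and classed again, the 2-fold line was passed by 19 of 29 genes in tumour and 19 of 20 in lymph node. The share of all genes that did so was not computed under these settings. The genes spread widely. Rrm2 stood highest in both: 153 CPM with 3 or more and 10.1 CPM with 0 in tumour, 15.1-fold (9.28 to 26.5), and 290 CPM and 2.99 CPM in lymph node, 96.8-fold (62.4 to 158). Tk1 was 8.48-fold (5.72 to 13.2) higher in tumour and 34.3-fold (22.8 to 53.5) in lymph node. Chaf1a was 10.7-fold (4.86 to 29.2) higher in tumour and 41.0-fold (19.6 to 99.2) in lymph node, and Uhrf1 5.09-fold and 33.5-fold.

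Mcm10 had 30 UMIs in lymph node cells with 3 or more mitotic UMIs and 0 in the 1644 cells with none, so it was at least 52.9-fold higher against a floor of 3 counts over the class; in tumour it was 6.91-fold higher (2.32 to 33.9; 152 and 3 UMIs). Cdc45 was 13.3-fold (4.50 to 64.7; 292 and 3 UMIs) higher in tumour and 19.1-fold (9.26 to 43.0) in lymph node. The lowest ratios belonged to genes that cells without mitotic UMIs also held. Rpa1, the large subunit of the single-strand binding protein, had 84.4 CPM with 3 or more and 65.1 CPM with 0 in tumour, 1.30-fold (1.06 to 1.60), and 95.1 CPM and 49.2 CPM in lymph node, 1.93-fold (1.56 to 2.38). Rfc2 was 1.71-fold and 2.48-fold higher, Slbp 1.88-fold and 4.47-fold, and Mcm6 1.93-fold and 4.77-fold. The helicase genes of one complex differed here: Mcm7 was 6.12-fold (4.15 to 9.40) higher in tumour and Mcm6 1.93-fold (1.59 to 2.35), and in lymph node Mcm7 was 6.73-fold (5.38 to 8.44) higher and Mcm6 4.77-fold (3.97 to 5.73). The ratio was higher in lymph node for all of the 41 genes but Mcm2, Gins1, Prim1 and Rfc4. The share of all genes with a higher ratio in lymph node was not computed. The class with 3 or more mitotic UMIs was also not alike in the tissues. The deepest 5% of each library held 57 of its 90 lymph node cells and 73 of its 736 tumour cells.

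At equal depth the level rose over the classes up to 5 to 9 mitotic UMIs. Thinning also moves cells to classes with fewer mitotic UMIs, so these values cannot tell a graded relation from a step. With every cell thinned to 2500 UMIs, tumour cells with 0, 1, 2, 3 to 4, 5 to 9 and 10 or more mitotic UMIs held 1239.6, 1564, 2091, 3166, 3849 and 2795 CPM of the 41 genes. Lymph node cells held 650.3, 913, 1609.5, 3000, 4743 and 3408 CPM in the same classes. The level was thus highest at 5 to 9 mitotic UMIs and lower in the cells richest in mitotic transcripts, by intervals that did not overlap: 2795 (2631 to 2966) at 10 or more and 3849 (3632 to 4076) at 5 to 9 in tumour. In lymph node the classes of 3 to 4 and 5 to 9 held 12 and 14 cells, so the peak there rests on few cells, and without them the level went up at each step to 10 or more.

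**Figure D2:**
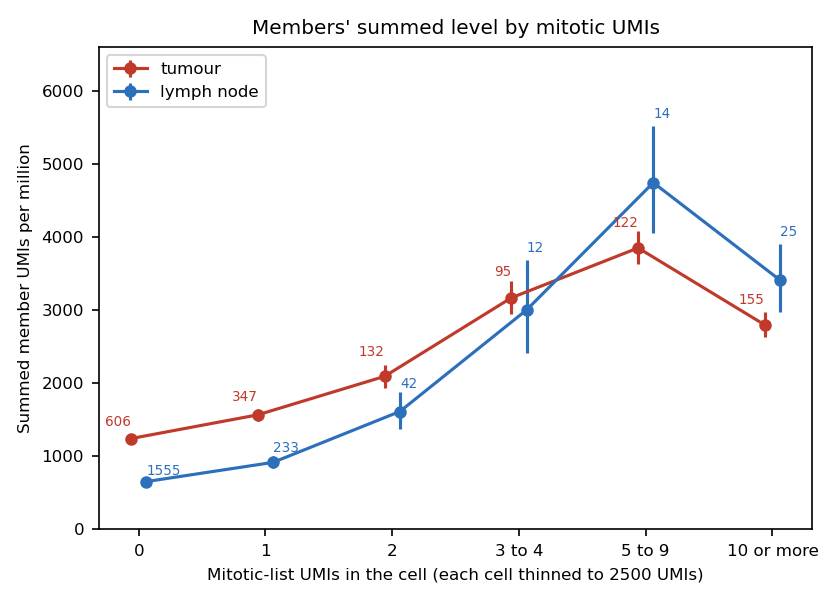
Summed level of the 41 genes (CPM) by the number of mitotic-list UMIs in the cell, every cell thinned to 2500 UMIs, in tumour (red) and lymph node (blue); bars are 95% Poisson intervals for counting error and the small numbers count cells. Tumour cells stand above lymph node cells at 0, 1 and 2 mitotic UMIs (1239.6 against 650.3 CPM at 0), and both peak at 5 to 9 (3849 and 4743 CPM).

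In cells with 0 mitotic UMIs (248 in tumour, 1644 in lymph node) the sum was 942 CPM in tumour and 659 CPM in lymph node, 1.43-fold (1.35 to 1.52). Thinning every cell to 2500 UMIs changed the class, to 606 tumour and 1555 lymph node cells. The sum in the thinned class was 1239.6 CPM and 650.3 CPM, 1.91-fold (1.79 to 2.02). Of the 30 genes with at least 50 UMIs in the unthinned class, 5 reached 2-fold higher in tumour and 2 reached 2-fold lower, beside 11.8% and 8.63% of 7869 genes. Both shares (16.7% and 6.67%) were thus near the background and are no result about the 30. The 5 were Mcm5, Gins2, Lig1, Tk1 and Rrm1. Tk1 had 15.8 CPM in tumour and 3.85 CPM in lymph node, 4.11-fold (2.29 to 7.35), Lig1 34.8 and 10.98 CPM, 3.17-fold (2.20 to 4.53), and Gins2 15.8 and 4.99 CPM, 3.17-fold (1.82 to 5.45). The 2 lower were Gins1, with 2.53 CPM (4 UMIs) in tumour and 11.1 CPM (78 UMIs) in lymph node, a ratio of 0.227 (0.0604 to 0.606), and Ung, with 5.69 CPM (9 UMIs) and 11.98 CPM (84 UMIs), 0.475 (0.210 to 0.946). Barcodes with 10 to 100 UMIs had a summed level 3.63-fold (3.44 to 3.83) that of the cells with 0 mitotic UMIs in tumour. In lymph node it was 2.44-fold (2.34 to 2.54). The part of free RNA in the low counts of these cells was not tested. With 1 or 2 mitotic UMIs the sum was 1.58-fold (1.49 to 1.68) higher in tumour, and 10 of 32 genes were at least 2-fold higher and 1, Gins1, at least 2-fold lower, beside 12.9% and 4.78% of 7074 genes. In both classes together, cells with fewer than 3 mitotic UMIs, 14 of 35 genes reached 2-fold higher and 1 reached 2-fold lower, beside 12.2% and 7.47% of 8931 genes, and the sum was 1.61-fold (1.55 to 1.67) higher in tumour.

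In cells with 3 or more mitotic UMIs the order of the tissues turned round. The sum was 3332 CPM in tumour and 4307 CPM in lymph node, 1.29-fold lower in tumour (1.26 to 1.33). At least 2-fold higher were 0 of 41 genes and at least 2-fold lower 2, Pola1 and Ung, beside 8.38% and 3.46% of 8747 genes; the median log2 ratio was -0.36, against 0.01 for all genes. The ratio was under 1 for 39 genes, and for 24 the whole interval was. The share of all genes with a ratio or a whole interval under 1 was not computed. Rrm2 had 153 CPM in tumour and 290 CPM in lymph node, a ratio of 0.528 (0.472 to 0.591), and Ung 28.4 CPM and 61.1 CPM, 0.464 (0.363 to 0.600). Mcm2 had 76.21 CPM in tumour and 76.19 CPM in lymph node (interval of the ratio 0.813 to 1.24), and Tk1 134 and 132 CPM (0.868 to 1.19). The turn depended on the deepest cells: of the 90 lymph node cells in the class 57 were among the 5% of that library with the most UMIs, and of the 736 tumour cells 73 were. Without those 5% of each library the sum was 1.59-fold higher in tumour. With every cell thinned to 2500 UMIs the class held 372 tumour and 51 lymph node cells, and the ratio was 0.880.

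**Figure D3:**
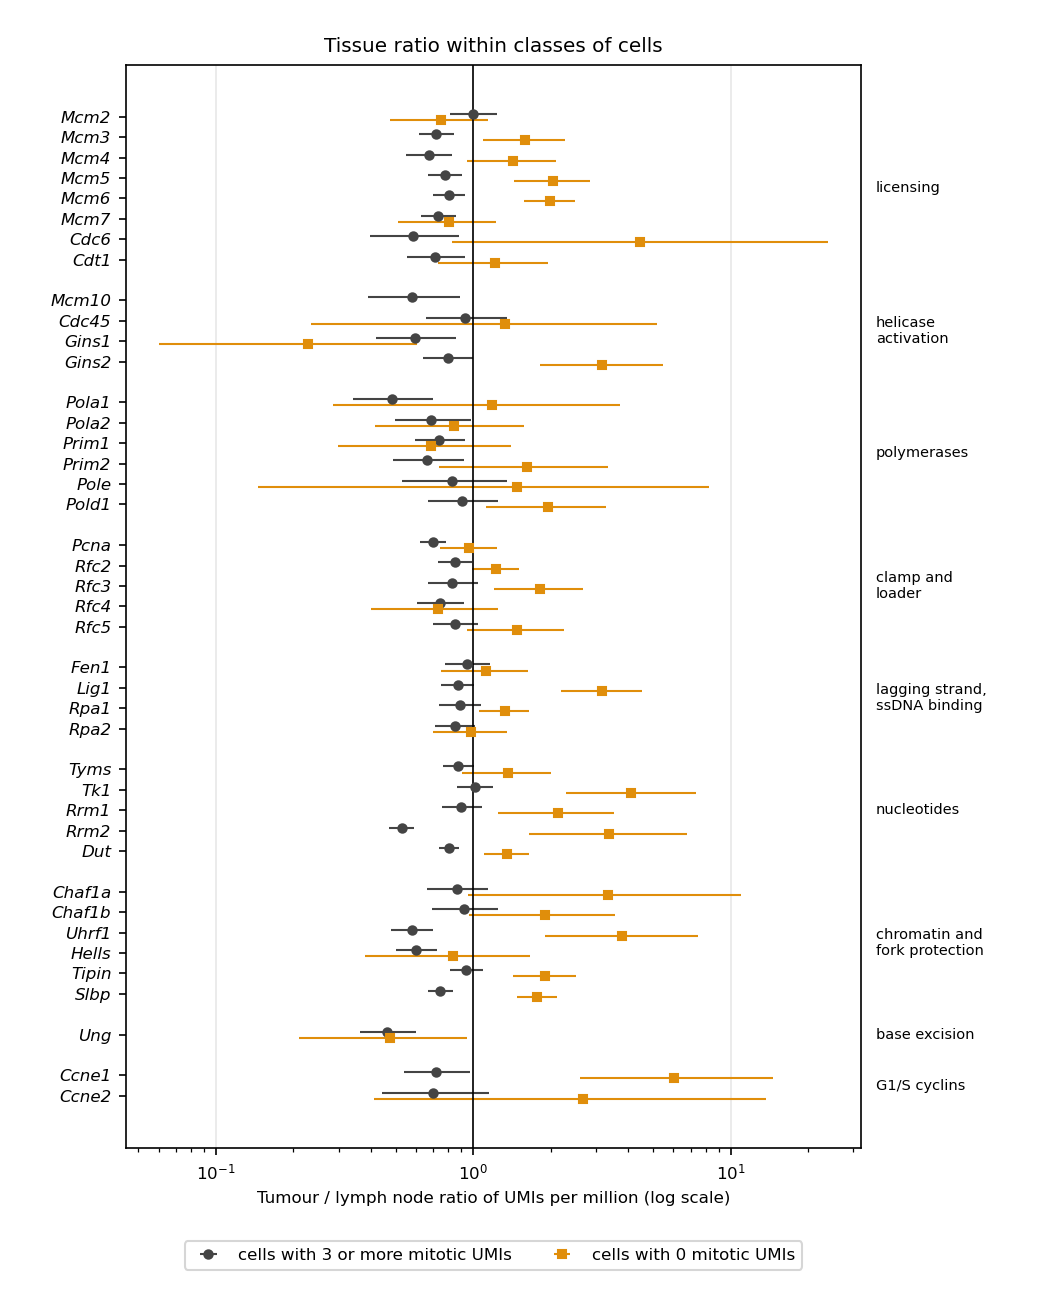
Tumour to lymph node ratio of CPM for each gene on a log axis, in cells with 3 or more mitotic UMIs (dark circles) and in cells with 0 (orange squares), with 95% intervals for counting error; the line marks 1 and Mcm10 has no ratio at 0. The circles lie near or under 1 (0.464 for Ung to 1.015 for Tk1), and the squares spread on both sides, between 0.227 for Gins1 and 6.05 for Ccne1.

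Cells with many of these transcripts and no mitotic UMI at 2500 UMIs per cell were looked for next, since S phase comes before mitosis. Thinning enlarged the class with 0 mitotic UMIs, which held 606 tumour cells here and 248 at full depth. Cells called non-mitotic below can thus hold mitotic UMIs at full depth. Of the cells with 10 or more UMIs of the 41 genes at 2500 UMIs, 44 of 249 in tumour (17.7%, 13.1 to 23.0) and 6 of 45 in lymph node (13.3%, 5.05 to 26.8) had 0 mitotic UMIs. To compare single genes without using a gene to choose its own cells, each gene was left out in turn and tumour cells were classed by the other 40. Depending on the gene, 196 to 230 tumour cells had 0 mitotic UMIs and 3 or more UMIs of the other 40, 376 to 410 had 0 mitotic and fewer of the others, and 155 had 10 or more mitotic UMIs.

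Single genes differed widely along these classes, also within a role. Ung (ENSMUSG00000029591, chr5:114130386-114139323) was the extreme: it had 2.58 CPM (1 UMI) in the cells with 10 or more mitotic UMIs and 49.3 CPM (28 UMIs) in the cells with 0 mitotic and 3 or more others, a ratio of 0.0523 (0.00128 to 0.316). It had 4.22 CPM (4 UMIs) in cells with neither. Mcm2 had 31.0 CPM in the highly mitotic and 64.0 CPM in the non-mitotic class, 0.484 (0.229 to 0.952), and Slbp 137 CPM and 200 CPM, 0.684 (0.480 to 0.965). The licensing genes Mcm4, Cdc6 and Cdt1 and the remodeller Hells had ratios of 0.449, 0.297, 0.486 and 0.455, with intervals that held 1. Another licensing gene, Mcm7, was on the other side at 1.76-fold (1.06 to 2.93), and so was Uhrf1 at 2.30-fold (1.18 to 4.61), unlike Slbp of the same role. The ratio was above 1 for all 5 nucleotide genes: Rrm2 had 178 CPM (69 UMIs) with 10 or more mitotic UMIs and 31.6 CPM (18 UMIs) with 0 mitotic and 3 or more others, 5.64-fold (3.32 to 10.1). Tk1 was 3.60-fold (2.27 to 5.85) higher, Tyms 3.32-fold (2.12 to 5.33), Rfc5 3.24-fold, Gins2 3.17-fold and Rrm1 2.61-fold (1.55 to 4.50). In all, the whole interval was above 1 for 12 of 40 genes and under 1 for 3. For these classes the share of all genes was not computed. In lymph node 25 cells had 10 or more mitotic UMIs, and 276 to 333 had 0 mitotic and 3 or more others. Slbp went the other way there, 3.10-fold (1.66 to 5.47) higher in the highly mitotic cells, and Mcm2 stood at 1.26 (0.245 to 4.04). Rrm2 was again higher, 14.3-fold (6.25 to 33.1), and Ung had 0 UMIs in the highly mitotic and 16 in the non-mitotic class.

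With 10 or more UMIs of the other genes, a class added after the data were seen, the non-mitotic cells numbered 40 to 44 and many ratios were lower. The whole interval was then under 1 for 19 of 38 genes, among them all 8 licensing genes, Pcna, Dut and Ung. It was above 1 for 1, Rrm2 at 2.13-fold (1.06 to 4.85). The non-mitotic cells were chosen for high levels of the other genes and the mitotic cells were not. Ratios under 1 are thus in part built into the choice, and the share of all genes was not computed. Ung had 2.58 CPM (1 UMI) with 10 or more mitotic UMIs and 209 CPM (23 UMIs) in the non-mitotic class. Tyms, Tk1 and Rrm1 stood at 1.001 (0.594 to 1.76), 0.994 (0.583 to 1.78) and 0.994 (0.515 to 2.07). For 3 genes the ratio turned round with both intervals clear of 1. Dut stood at 0.470 (0.342 to 0.651), against 1.54 (1.16 to 2.05) with 3 or more UMIs of the other genes, Mcm7 at 0.525 (0.297 to 0.955), against 1.76, and Lig1 at 0.620 (0.396 to 0.994), against 1.74 (1.20 to 2.52). So the direction depended on how rich the non-mitotic cells were for Dut, Mcm7 and Lig1. Mcm2, Slbp, Ung and Rrm2 kept theirs with both intervals clear of 1, and for all of them but Rrm2 that was under 1. Lymph node gave 4 to 6 such cells, and no ratio is read from them.

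**Figure D4:**
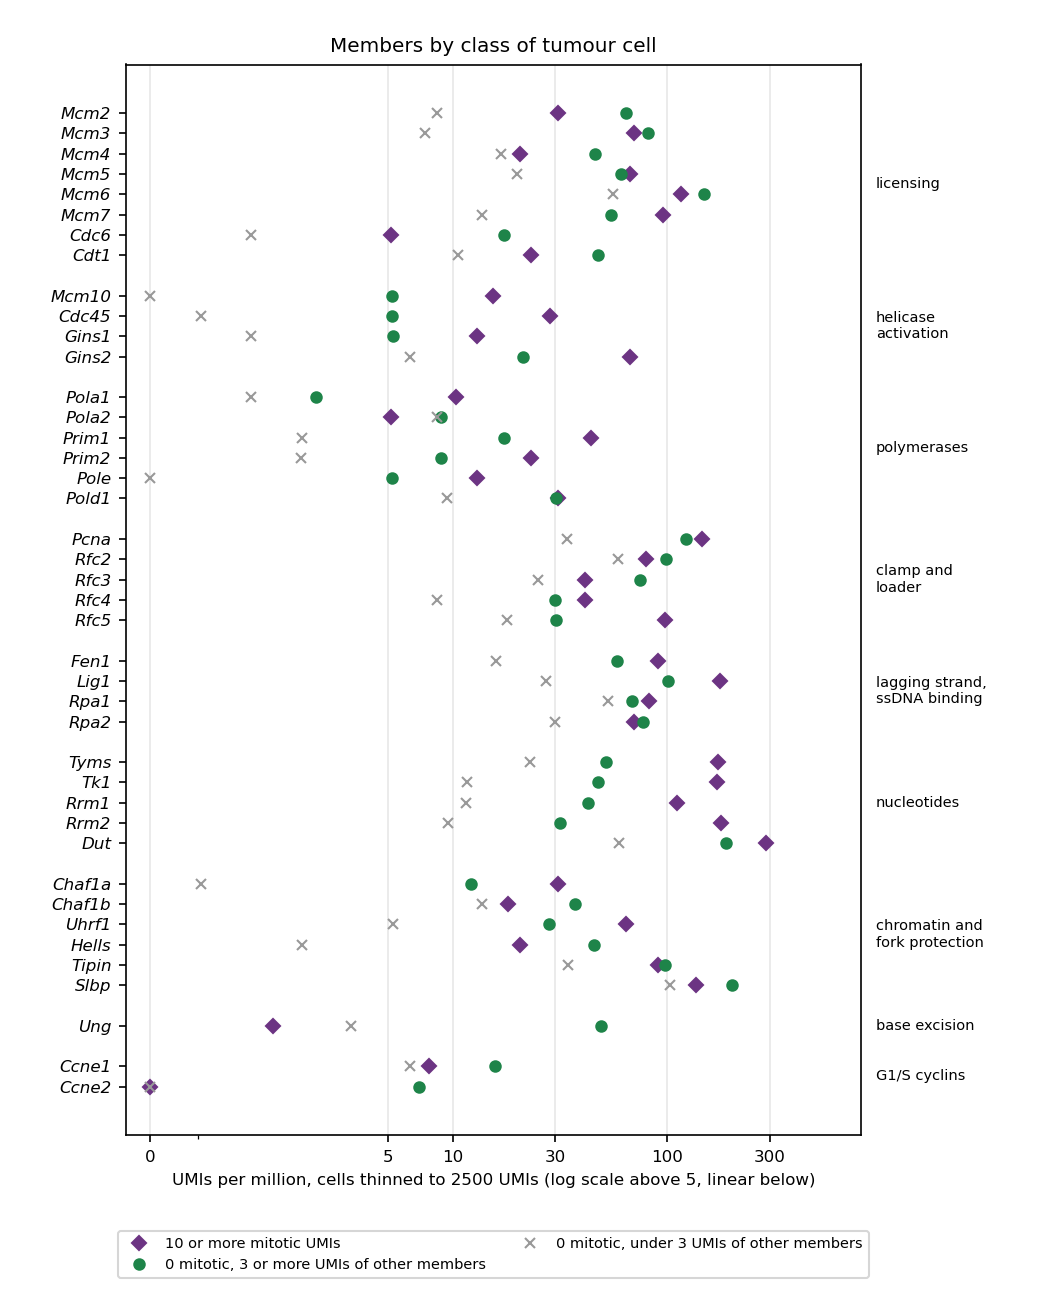
Level of each gene in tumour cells thinned to 2500 UMIs (CPM; log scale above 5, linear below), in cells with 10 or more mitotic UMIs (purple diamonds), cells with 0 mitotic and 3 or more UMIs of the other genes (green circles) and cells with 0 mitotic and fewer (grey crosses). Diamonds lie right of circles for the nucleotide genes (Rrm2 178 against 31.6 CPM) and left of them for Ung (2.58 against 49.3 CPM), Mcm2 and Slbp.

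Cells with a Foxp3 UMI gave a smaller difference between the tissues. There were 244 such cells in tumour, 56.1% of them with 3 or more mitotic UMIs, and 211 in lymph node, 9.00% of them with 3 or more. The 41 genes summed to 2381 CPM (2326 to 2437) in these tumour cells and 1567 CPM (1497 to 1639) in these lymph node cells, and 6 of the 36 genes with at least 50 UMIs reached 2-fold higher in tumour and 0 reached 2-fold lower, beside 11.5% and 4.17% of 6325 genes, so the share higher (16.7%) was near the background. In lymph node the level was higher than over all cells (1127 CPM), and in tumour lower (2650 CPM). The median depth of these cells was 9662 UMIs in tumour and 4663 UMIs in lymph node, above that of all cells in each tissue.

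Genes of the same pathways outside the 41 followed in part. Of 19 measured genes of origin recognition and its kinases 8 reached 2-fold higher in tumour and 0 lower, with a median log2 ratio of 0.66, where 13.2% of all genes were higher. Gmnn, which encodes the Cdt1 inhibitor geminin, had 129 CPM in tumour and 41.5 CPM in lymph node, 3.11-fold (2.80 to 3.45), and Orc1, the cell cycle regulated subunit of the origin recognition complex, had 4.20 CPM (70 UMIs) and 0.468 CPM (5 UMIs), 8.97-fold (3.67 to 28.5). Of 24 further polymerase and fork genes 7 were at least 2-fold higher and 0 lower (median log2 ratio 0.81), with the checkpoint adaptor Clspn at 3.62-fold (2.83 to 4.68) and the histone chaperone Asf1b at 2.98-fold (2.64 to 3.37). Of 14 measured E2F and Rb family genes 6 were at least 2-fold higher and 0 lower (median 0.88), among them E2f1 at 2.73-fold (2.11 to 3.55) and E2f8 at 3.62-fold (2.48 to 5.46). The other nucleotide genes did not follow the 5 among the 41: 2 of 33 were at least 2-fold higher and 0 lower, and the median log2 ratio was 0.13. Among them was Dctpp1, a dCTP pyrophosphatase, at 2.30-fold (2.09 to 2.54). The mitochondrial thymidine kinase Tk2 had 14.9 CPM in tumour and 26.3 CPM in lymph node, a ratio of 0.568 (0.477 to 0.676), beside 4.87 for Tk1, its cytosolic counterpart.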

How the data were processed

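The authors deposited 1 matrix of raw UMI counts, genes by barcodes, for the tumour and 1 for the lymph node library. Cell Ranger and mm10 are named per the submitters' processing notes; version and annotation: not given in the sources used here.

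A barcode was kept as a cell with at least 3834 UMIs (tumour) or 1811 (lymph node), 10% of the UMIs at percentile 99 of the largest 3000 barcodes. It also needed at least 200 genes, at most 10% mitochondrial UMIs, under 20 UMIs of Pmel, Dct and Mlana, under 3 of C1qa, C1qb and Lyz2, and under 2 of Cd79a and Ms4a1. Of 1489 and 2226 barcodes called, 1457 and 2202 were kept, with 16669263 and 10681101 UMIs. Doublets were kept and no caller was run.

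Counts were summed over cells. Ratios carry the exact conditional-binomial 95% interval, sums the exact Poisson and shares the Clopper-Pearson interval, all for counting error only and treating UMIs as independent. Counts of genes and medians took genes with 50 UMIs over both sides; single ratios on fewer are given with their interval or UMIs. A gene counts as higher or lower from a 2-fold ratio on. For shares, cells were thinned to 2500 UMIs (seed 1), which left out 0 tumour and 321 lymph node cells. All 41 genes are named; of each other list, up to 3 genes each way, ranked on whichever bound of the interval is closer to 1. A gene of the nucleotide list that this rule names is not reported here. Genes, lists and comparisons were chosen with earlier results of these data known. Alternatives were other scalings (edgeR TMM, median of ratios), count minimums, depths, cell filters and mitotic classes. Gene coordinates are GENCODE M21 on GRCm38 and promoter windows RefSeq. Python 3.11.15, numpy 2.4.6, scipy 1.17.1, pandas 2.3.3, R 4.3.3 and edgeR 4.0.16 were used, and the ratio code was tested on simulated data.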

Additional observations from a re-analysis of the deposited data

Results flagged for a closer look

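For 9 of the 41 genes the tumour to lymph node ratio turned between classes of cells. It was above 1 with 0 mitotic UMIs and under 1 with 3 or more, and both counting intervals were clear of 1. The difference between the classes was not tested, and the share of all genes with such a turn was not computed. Without the 5% of cells with the most UMIs in each library all 9 were above 1 with 3 or more mitotic UMIs, between 0.23 (Uhrf1) and 1.69 (Ccne1) on the log2 scale, so the direction there rests on those cells. In the licensed helicase, Mcm3 had ratios of 1.59 with 0 mitotic UMIs and 0.718 with 3 or more, Mcm5 2.04 and 0.777, and Mcm6 1.99 and 0.803. The helicase activator Gins2 had 3.17 and 0.795. Among the nucleotide genes, Rrm2 had 3.38 (16 tumour and 21 lymph node UMIs) and 0.528 and Dut 1.35 and 0.806. Uhrf1 had 3.80 (18 and 21 UMIs) and 0.577, and Slbp 1.77 and 0.746. Ccne1 had the widest span, 6.05 and 0.718, on 15 tumour and 11 lymph node UMIs with 0 mitotic UMIs.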

How the results depend on the processing

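Of 107 values of 12 summary results under 23 alternatives, 64 stayed within their limits, 42 moved and 1 changed sign; of 465 single-gene tissue ratios 304 stayed, 149 moved and 12 changed sign. Scaling by TMM or median of ratios moved every tissue log2 ratio by -0.10 and -0.08 and left all summary results tried under it in place, as did other count minimums and the 5% mitochondrial limit. The cause of the changes below was not tested. No paired analysis was possible because each tissue has 1 library. Counting error limits the genes with few UMIs in a class, and the lymph node class with 3 or more mitotic UMIs holds 90 cells.

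Without the 5% of cells with the most UMIs, the summed level was 2445 CPM in tumour and 659.7 CPM in lymph node, the tissue median log2 ratio 2.06, and the share of cells with 3 or more UMIs of the 41 genes 21.0% in lymph node. Between mitotic classes in lymph node 22 genes were then at least 2-fold apart, with a median of 1.68. The share of all genes so far apart was not computed. The summed log2 tissue ratio became 0.62 with 0 mitotic UMIs and changed sign to 0.67 with 3 or more. So did those of Ccne1 (1.69), Dut (0.53), Gins2 (1.18), Mcm3 (0.79), Mcm5 (0.95), Mcm6 (0.97), Rrm2 (0.84), Slbp (0.57) and Uhrf1 (0.23).

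With every cell thinned to 2500 UMIs, the summed level was 1904 CPM in tumour and 786.4 CPM in lymph node, and with every cell weighted equally 1902 and 771.4 CPM. Thinned, 19 genes in tumour (median 1.31) and 19 in lymph node (median 2.15) were at least 2-fold higher with 3 or more mitotic UMIs. The share of all genes was not computed here either. Mitotic classes were set anew on the thinned cells, so they hold other cells than at full depth. The thinned summed log2 tissue ratio was 0.93 with 0 mitotic UMIs and -0.19 with 3 or more, where Dut (0.30), Gins2 (0.48), Mcm3 (0.13) and Mcm6 (0.22) changed sign.

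Without cells with 3 or more mitotic UMIs, 15 of 35 genes were at least 2-fold apart (14 higher and 1 lower, beside 12.2% and 7.47% of 8931 genes; median log2 ratio 0.73), sums were 1089.9 CPM in tumour and 676.9 CPM in lymph node, and Rfc4 (-0.16) and Ung (-0.53) changed sign. In cells with 0 mitotic UMIs, added after the data were seen, 7 of 30 were (median 0.44), sums were 942 and 659 CPM, and the signs of Mcm2 (-0.42), Mcm7 (-0.31), Pola2 (-0.24), Prim1 (-0.54), Pcna (-0.052), Rfc4 (-0.45), Rpa2 (-0.025), Hells (-0.26) and Ung (-1.07) changed. In cells with a Foxp3 UMI 6 of 36 were (median 0.56), sums were 2381 and 1567 CPM, and Ung stood at -0.49.

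With a higher UMI threshold the sums were 2850 CPM in tumour and 1169 CPM in lymph node. With 1 or more mitotic UMIs as the class the lymph node median was 1.64. Leaving Cenpa out of the mitotic list gave a summed log2 tissue ratio of -0.31 with 3 or more mitotic UMIs, and a class of 10 or more gave -0.30; both were added after the data were seen. The share of cells with 3 or more UMIs of the 41 genes was 34.9% in tumour and 10.9% in lymph node at 1500 UMIs per cell, and 63.3% and 34.5% at 3500; with 1 or more it was 87.9% and 78.1%, and with 5 or more 31.7% and 6.11%.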
